A study of Mus musculus with 12 samples.

Results

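The genes described here encode the tissue inhibitors of metalloproteinases (Timp1, Timp2, Timp3 and Timp4), 3 matrix metalloproteinases (Mmp2, Mmp14 and Mmp15) and 2 members of the ADAMTS family of secreted proteases (Adamts1 and Adamts5). They were chosen by name with earlier results of these data known, and all 9 were found among the 51912 genes of the deposited table. RNA from fresh mouse heart ventricle was sequenced in 12 libraries, 3 each from LCHADD females, LCHADD males, WT females and WT males. LCHADD is long-chain 3-hydroxyacyl-CoA dehydrogenase deficiency, in which mitochondria fail to complete the oxidation of long-chain fatty acids, and the study concerns arrhythmia in a mouse model of it. The labels state that no treatment was given. They name the genotype only as LCHADD or WT, and no source used here gives the age, the strain, the allele or whether animals were pooled.

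Matrix metalloproteinases are zinc enzymes that cut collagens, basement membrane proteins and other components of the extracellular matrix, and TIMPs block them by binding their active site. The system is wired together at the protein level: Timp2 bridges the membrane-anchored protease Mmp14 to the inactive form of the gelatinase Mmp2, and this complex lets Mmp14 activate Mmp2. Timp3 is held in the matrix and also inhibits ADAM and ADAMTS proteases, and Timp4 is best known as a TIMP of the heart. In the heart the system governs the turnover of the matrix around the myocytes, and several cell types of the ventricle wall, fibroblasts among them, express its members.

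The libraries held 15.6 to 23.2 M reads assigned to genes (M, mega), and mitochondrially encoded genes took 31.0% to 37.9% of them in LCHADD and 27.5% to 32.7% in WT. LCHADD females 2 and 3 differed most of any replicate pair, with a chi-square of 53.1 per degree of freedom in their reads per gene. It was 22.5 for LCHADD females 1 and 2, 20.8 for LCHADD females 1 and 3 and 4.62 for the closest pair. Among WT replicate pairs it was highest for WT female 3 with WT females 1 and 2, at 14.7 and 10.7. The log2 values of LCHADD female 2 correlated at 0.978 and 0.971 with LCHADD females 1 and 3, which correlated at 0.985. LCHADD female 3 had the highest mitochondrial share, 37.9%. For the 9 genes and the named genes of the related lists, calls that change without LCHADD female 2 are given with and without it. Counts of the marker lists, and all list counts by sex, come from the main fit alone and were not recomputed without it. Scaling by the reads from nuclear genes moved the median change of all genes by at most 0.066 and the genes past the threshold in females to 2884 higher and 1953 lower, against 2314 higher and 2378 lower with the deposited scaling. The 9 genes kept their directions in each genotype comparison under every scaling tried.

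Of the 9 genes, 7 were lower in LCHADD than in WT ventricles in the mean of both sexes and 0 were higher, at an adjusted p under 0.05 in limma. Across all 13865 genes tested, 40.8% passed by the same rule, 20.6% lower and 20.3% higher. The genes that fell were Timp2, Timp4, Mmp2, Mmp14, Mmp15, Adamts1 and Adamts5, so that proteases and inhibitors were lower together. Timp3 and Timp1 did not pass. Without LCHADD female 2 and WT female 3 the count was again 7 of 9, with 20% of 13736 tested genes lower. Throughout, a normalised read count is the deposited value, reads divided by 1 size factor per library, and a change is LCHADD minus WT on the log2 scale of that value plus 1.

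The promoters of the 3 genes with the lowest LCHADD level relative to WT, Adamts1, Timp2 and Mmp15, are shown beside that of Timp3, an inhibitor that did not pass. Each is the 250 bases before the start of the gene in RefSeq on build GRCm38.p6, written 5′ to 3′ on the strand of the gene. Capitals mark the GC box GGGCGG on either strand and the TATA box TATAAA.
Adamts1, chr16:85803114-85803363, minus strand: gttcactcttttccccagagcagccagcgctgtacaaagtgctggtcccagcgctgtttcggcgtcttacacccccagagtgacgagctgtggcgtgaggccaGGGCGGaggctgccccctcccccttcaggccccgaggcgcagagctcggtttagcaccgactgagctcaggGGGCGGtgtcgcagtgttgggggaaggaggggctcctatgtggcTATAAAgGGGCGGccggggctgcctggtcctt
Timp2, chr11:118355412-118355661, minus strand: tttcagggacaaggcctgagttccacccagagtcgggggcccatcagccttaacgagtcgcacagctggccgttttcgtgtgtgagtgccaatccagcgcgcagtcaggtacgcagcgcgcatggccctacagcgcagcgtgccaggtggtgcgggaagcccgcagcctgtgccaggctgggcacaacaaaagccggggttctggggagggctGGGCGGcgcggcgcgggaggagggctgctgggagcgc
Mmp15, chr8:95352046-95352295, plus strand: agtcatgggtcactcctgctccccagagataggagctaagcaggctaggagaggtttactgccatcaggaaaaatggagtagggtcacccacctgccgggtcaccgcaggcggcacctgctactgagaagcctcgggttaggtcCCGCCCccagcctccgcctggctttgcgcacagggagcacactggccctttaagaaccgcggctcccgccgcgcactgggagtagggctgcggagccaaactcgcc
Timp3, chr10:86300162-86300411, plus strand: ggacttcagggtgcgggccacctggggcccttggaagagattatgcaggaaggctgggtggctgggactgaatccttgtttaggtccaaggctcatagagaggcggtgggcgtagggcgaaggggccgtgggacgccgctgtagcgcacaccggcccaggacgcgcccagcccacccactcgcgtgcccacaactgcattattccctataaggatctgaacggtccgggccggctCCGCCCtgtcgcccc
A promoter was found for 7 of the 9 genes, all but Mmp2 and Adamts5. The GC box was present in 6 of the 7, all but Timp4, and in 32.74% of the 32851 promoters of the same length. The TATA box was present only in Adamts1 among the 7, with its first base at -32, and in 12.37% of all promoters. The AP-1 letters TGANTCA, on either strand, were in 0 of the 7 and in 6.749% of all. TGATGNAA, an element of the kind bound by ATF4, was in 0 of the 7 and in 3.452% of all. These matches describe the letters in these windows and no binding was measured.

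The 4 inhibitors differed among themselves in how far their levels lay from WT. Timp2 (ENSMUSG00000017466, chromosome 11) had 723, 626 and 705 normalised read counts in LCHADD females 1, 2 and 3 and 869, 815 and 875 in LCHADD males. It had 1369, 1283 and 1220.4 in WT females and 1397, 1459 and 1450.3 in WT males. Every LCHADD library was below every WT library, and within each genotype all 3 females were below all 3 males. Timp2 stood at 56.4% of its WT level over both sexes, with a change of -0.83 (SE 0.06, limma adjusted p = 3.38e-08). The change was -0.92 in females (adjusted p = 8.28e-07) and -0.75 in males (adjusted p = 1.64e-05).

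Timp4 (ENSMUSG00000030317, chromosome 6) had 183, 183 and 222 normalised read counts in LCHADD females and 172, 326 and 213 in LCHADD males. It had 209.7, 316 and 305 in WT females and 351, 529 and 293 in WT males. The genotypes overlapped in both sexes, and the second replicate was the highest of its group in the males of both genotypes. In the mean of both sexes Timp4 fell by 0.60 (SE 0.17, limma adjusted p = 0.00944), to 64.8% of the WT level. Neither sex alone passed, with changes of -0.48 in females (adjusted p = 0.132) and -0.73 in males (adjusted p = 0.0503). The male change passed without LCHADD female 2 (adjusted p = 0.0198), LCHADD female 3 (0.0374), LCHADD male 2 (0.0133), WT female 1 (0.0457) or WT male 3 (0.0387), where leaving out females changes only the shared spread.

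Timp3 (ENSMUSG00000020044, chromosome 10) had 1162, 1152 and 1539 normalised read counts in LCHADD females and 1569, 1421 and 1544 in LCHADD males. The WT values were 1231, 1613 and 1484 in females and 1648, 2055 and 1572 in males. The females of the genotypes overlapped, while the 3 LCHADD males were just below the 3 WT males. The change of -0.19 in the mean of both sexes did not pass (95% confidence interval -0.38 to 0.0028, limma adjusted p = 0.107). It passed without LCHADD female 3 (-0.26, adjusted p = 0.0152) and without WT female 1 (-0.25, adjusted p = 0.0463).

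Timp1 (ENSMUSG00000001131, X chromosome), the TIMP known for its rise in injured and fibrotic tissue, was scarce in every library. It had 21.9, 18.4 and 30.6 normalised read counts in LCHADD females and 18.8, 24 and 13.7 in LCHADD males. It had 18, 25.1 and 15.4 in WT females and 6.97, 12.3 and 23.4 in WT males. The genotypes overlapped throughout, on 7 to 29 reads per library. The change of 0.38 did not pass, and its 95% confidence interval, -0.22 to 0.97 lay on both sides of 0. With single libraries left out it ran from 0.18 (without WT male 1) to 0.59 (without WT male 3), and it passed in none of these fits.

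Timp1, Timp3 and Timp4 lie inside synapsin genes on the opposite strand in GENCODE vM21, and no source used here gives the strand setting of the counting. Syn3, the host of Timp3, shares 1733 exon bases with it but had only 4.17 to 13.0 normalised read counts. Syn2, the host of Timp4, shares 90 exon bases with it and had 18.8 to 53.8, with a change of 0.30 (limma adjusted p = 0.221). Syn1, the host of Timp1, shares 0 exon bases with it and had 0 to 6.34. Cep295nl overlaps Timp2 on the same strand with 0 shared exon bases and had 0 to 2.60. A second gene over Timp4, Gm17482, was at 0 in all libraries.

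**Figure D1:**
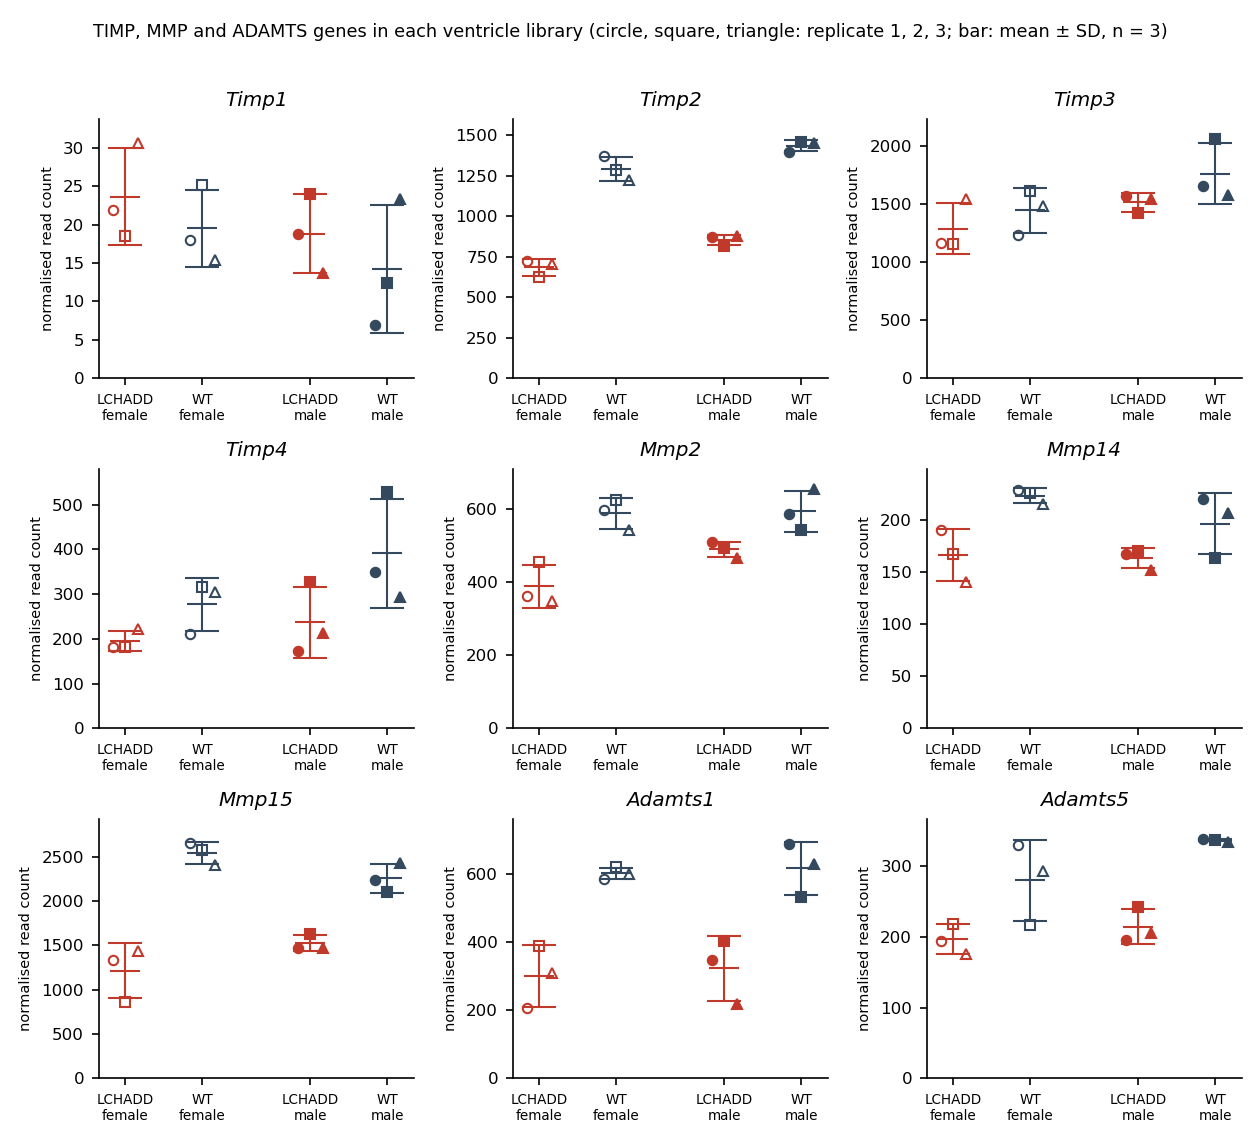
Normalised read count (y axis, from 0, a separate scale per gene) of each of the 9 genes in the 12 libraries, with LCHADD in red left of WT in dark blue, females as open and males as filled symbols, and bars for the group mean ± SD (n = 3). The LCHADD and WT libraries do not overlap for Timp2, Mmp2, Mmp15 and Adamts1, and they overlap throughout for Timp1.

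The gelatinase Mmp2 (ENSMUSG00000031740, chromosome 8), which cuts denatured collagen and basement membrane collagen, had 362, 456 and 348 normalised read counts in LCHADD females and 509, 493 and 467 in LCHADD males. It had 599, 625 and 542 in WT females and 587, 543 and 654 in WT males. No LCHADD library reached a WT library, and the LCHADD males lay nearer to WT than the LCHADD females did. Mmp2 was at 74.2% of WT, with a change of -0.44 (SE 0.08, limma adjusted p = 0.000395). The change passed in females (-0.61, adjusted p = 0.000706) and not in males (-0.28, adjusted p = 0.108), where it passed without LCHADD female 2 in the shared fit (adjusted p = 0.0309). The difference between the sexes, females minus males, was -0.33 and did not pass (unadjusted p = 0.0530, adjusted p = 0.516).

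Mmp14 (ENSMUSG00000000957, chromosome 14), the membrane-anchored collagenase that activates Mmp2, had 190.3, 168 and 140.5 normalised read counts in LCHADD females and 168, 171 and 152 in LCHADD males. It had 229, 226 and 216 in WT females and 220.1, 164 and 207 in WT males. The females did not overlap, and WT male 2 was within the LCHADD range. Mmp14 fell by 0.35 in the mean of both sexes (SE 0.10, limma adjusted p = 0.0108), to 78.4% of WT, the smallest change among the 7 genes that passed. In females the change of -0.44 (adjusted p = 0.0244) did not pass without LCHADD female 3 (-0.32, adjusted p = 0.0925), without WT female 1 (-0.42, adjusted p = 0.0708) or without WT female 2 (-0.43, adjusted p = 0.0659). In males it was -0.26 (adjusted p = 0.236).

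Mmp15 (ENSMUSG00000031790, chromosome 8), another membrane-anchored metalloproteinase, had 1341, 862 and 1442 normalised read counts in LCHADD females and 1470.5, 1627 and 1470.3 in LCHADD males. It had 2654, 2575 and 2409 in WT females and 2236, 2104 and 2431 in WT males. All LCHADD libraries were below all WT libraries, and LCHADD female 2 was the lowest of all. Over both sexes Mmp15 stood at 57.0% of WT, with a change of -0.83 (SE 0.10, limma adjusted p = 1.13e-05). The level was 47.7% of WT in females (change -1.10, adjusted p = 3.36e-05), or a change of -0.87 without LCHADD female 2. It was 67.5% of WT in males (change -0.57, adjusted p = 0.0132). The male change did not pass without LCHADD male 1 (adjusted p = 0.0546), LCHADD male 3 (adjusted p = 0.0503) or WT male 3 (adjusted p = 0.0633). The difference between the sexes was -0.53 (unadjusted p = 0.0170, adjusted p = 0.391). Without LCHADD female 2 it was -0.30, and that of Mmp2 was -0.45.

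Adamts1 (ENSMUSG00000022893, chromosome 16), a protease that cuts the proteoglycans versican and aggrecan, had 206, 387 and 310 normalised read counts in LCHADD females and 348, 403 and 217 in LCHADD males. It had 585, 619 and 599.9 in WT females and 686, 533 and 629 in WT males. Again no LCHADD library reached a WT library, but the LCHADD libraries were spread widely, with a coefficient of variation of 27.0% in LCHADD and 8.35% in WT (n = 6 each). The fall of 1.01 was the largest among the 9 genes (SE 0.15, limma adjusted p = 0.000105), and LCHADD stood at 51.2% of WT. Both sexes passed, with -1.04 in females (adjusted p = 0.00181) and -0.97 in males (adjusted p = 0.00730).

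Adamts5 (ENSMUSG00000022894, chromosome 16), best known as an aggrecanase of cartilage, had 195, 218 and 176 normalised read counts in LCHADD females and 196, 243 and 205 in LCHADD males. It had 329, 217 and 293 in WT females and 338, 337 and 335 in WT males. Among males the genotypes were far apart and the 3 WT values almost equal, while WT female 2 lay within the LCHADD range. The change was -0.57 in the mean of both sexes (SE 0.10, limma adjusted p = 0.000422). It was -0.49 in females (adjusted p = 0.0167) and -0.65 in males (adjusted p = 0.00693). The female change did not pass without WT female 1 (-0.36, adjusted p = 0.0915) or without WT female 3 (-0.45, adjusted p = 0.0612).

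**Figure D2:**
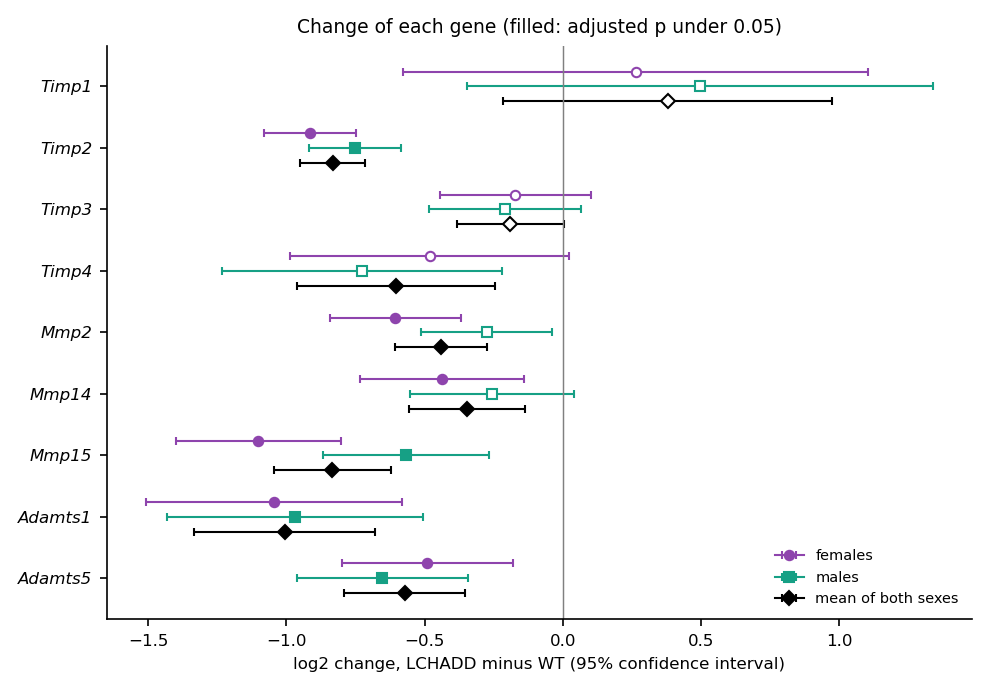
Log2 change, LCHADD minus WT, with its 95% confidence interval (x axis) for each of the 9 genes (rows), in females (circles), in males (squares) and in the mean of both sexes (diamonds), filled where the limma adjusted p is under 0.05. Timp2, Mmp15, Adamts1 and Adamts5 pass in both sexes, with mean changes of -0.83, -0.83, -1.01 and -0.57, while Timp1, Timp3 and Timp4 pass in neither sex, and Timp4 passes in the mean.

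By sex, 6 of the 9 genes were lower in LCHADD females (17.2% of all tested genes were lower and 33.8% passed in either direction), and 4 of 9 were lower in LCHADD males (7.77% of all tested genes lower, 15.5% in either direction). The 6 were Timp2, Mmp2, Mmp14, Mmp15, Adamts1 and Adamts5, and the 4 were Timp2, Mmp15, Adamts1 and Adamts5. None rose in either sex, where 16.7% of all tested genes rose in females and 7.71% in males. Without LCHADD female 2 and WT female 3, 6 of the 9 were lower in females, where 14.2% of all tested genes then were, and 6 of 9 in males, where Mmp2 and Timp4 then passed too and 12.3% of all tested genes were lower. The interaction of genotype and sex passed for 0 of 9 genes in limma and for 0.00721% of all tested genes. Of the 9, Mmp15 alone had an unadjusted interaction p under 0.05, and edgeR passed none of them. DESeq2 gave an adjusted p for 3 of the 9 interactions (Timp2, Timp3 and Mmp15), and none of these passed. Timp4, with adjusted p = 0.0503 in males, passed there in 14 of 27 alternatives (adjusted p 0.0121 to 0.217).

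Complete separation of the libraries was read against the same count over all genes. In 4 of the 9 genes every LCHADD library was below every WT library, which held for 9.91% of all tested genes. Within females this held for 5 of 9, the same 4 and Mmp14 (22.3% of all tested genes). Within males it held for 6 of 9, the same 4 with Timp3 and Adamts5 (19.3% of all tested genes). In 0 of the 9 were all LCHADD libraries above all WT libraries, against 9.82% of all tested genes in both sexes together, 22.2% in females and 19.6% in males.

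Since the ratio of 2 genes within 1 library does not depend on how that library was scaled, ratios of read counts show which of these genes fell further. They are not corrected for gene length, so only their differences between libraries can be read. The pairs were chosen by hand, and how many gene pairs of the whole table separate the genotypes was not computed. Timp3 to Timp2 was 1.61, 1.84 and 2.18 in LCHADD females and 1.81, 1.74 and 1.76 in LCHADD males. It was 0.899, 1.26 and 1.22 in WT females and 1.18, 1.41 and 1.08 in WT males. Every LCHADD library had more Timp3 per Timp2 than any WT library. Timp2 to Mmp2, the inhibitor and the protease of the activation complex, was 2.00, 1.37 and 2.03 in LCHADD females and 1.71, 1.65 and 1.88 in LCHADD males. It was 2.29, 2.05 and 2.25 in WT females and 2.38, 2.69 and 2.22 in WT males. These did not overlap either, although LCHADD female 3 and WT female 2 were close.

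Other pairs moved with less separation. Timp2 to Mmp14 ran from 3.73 to 5.74 in LCHADD and from 5.66 to 8.89 in WT, and the overlap came from LCHADD male 3 and 2 of the WT females. Mmp15 to Mmp14 ran from 5.13 to 10.3 in LCHADD and from 10.2 to 12.8 in WT. Timp3 to Adamts5 (5.28 to 8.72 in LCHADD, 3.74 to 7.44 in WT) overlapped as well. So did Timp3 to Adamts1 (2.97 to 7.10 in LCHADD, 2.10 to 3.86 in WT). Mmp2 to Mmp14, the substrate and its activator, overlapped broadly, with 1.90 to 3.06 in LCHADD and 2.51 to 3.31 in WT. Timp2 to Mmp15 averaged 0.574 ± 0.087 in LCHADD and 0.573 ± 0.079 in WT (SD, n = 6 each). By sex, females averaged 0.585 in LCHADD and 0.507 in WT, and males averaged 0.562 in LCHADD and 0.638 in WT (n = 3 each). The LCHADD female mean was raised by LCHADD female 2, at 0.726. LCHADD females 1 and 3 had 0.539 and 0.489, against 0.498 to 0.516 in WT females.

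**Figure D3:**
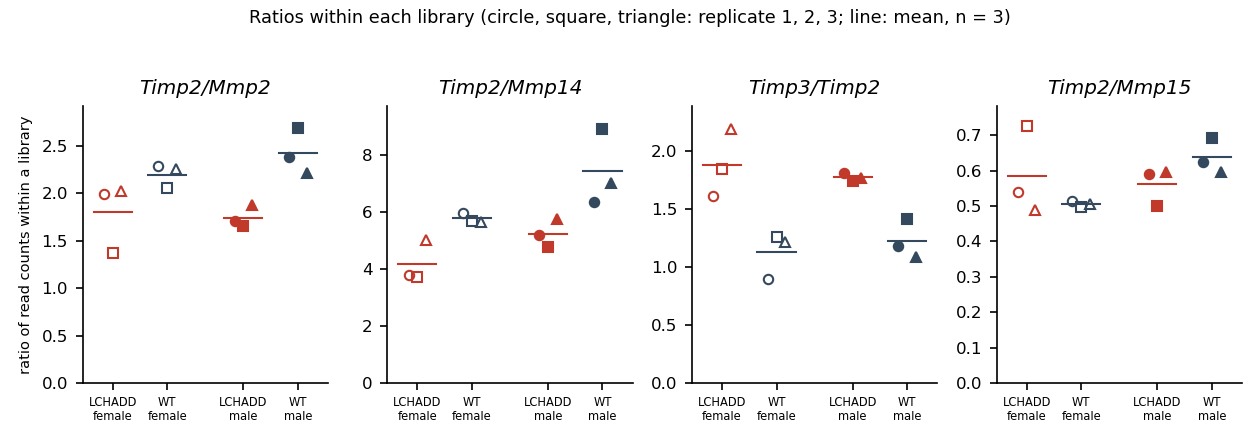
Ratio of normalised read counts of 2 genes within each library (y axis, from 0), with LCHADD in red left of WT in dark blue, females open and males filled, and a line at each group mean (n = 3). Timp2/Mmp2 is 1.37 to 2.03 in LCHADD and 2.05 to 2.69 in WT, Timp3/Timp2 is 1.61 to 2.18 in LCHADD and 0.899 to 1.41 in WT, and Timp2/Mmp14 and Timp2/Mmp15 overlap.

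Levels were compared between genes per kilobase of exon, with exon lengths from GENCODE vM21 that join the exons of all transcripts of a gene. These can exceed the length of the transcripts present, so the order of the genes depends on them. Mmp15 was the most abundant, with 254 ± 49 normalised read counts per kilobase in LCHADD and 445 ± 38 in WT (SD, n = 6 each). Timp2 had 197 in LCHADD and 350 in WT, Timp3 172 in LCHADD and 197 in WT, and Mmp2 130 in LCHADD and 175 in WT. Adamts1 followed with 58.8 in LCHADD and 115 in WT, then Timp4 with 36.7 in LCHADD and 56.7 in WT and Mmp14 with 27.7 in LCHADD and 35.3 in WT. The lowest were Adamts5, with 19.0 in LCHADD and 28.5 in WT, and Timp1, with 23.9 in LCHADD and 19.0 in WT. In WT the ranges of Timp3 and Mmp2 overlapped, as did those of Timp4 and Mmp14, Mmp14 and Adamts5, and Adamts5 and Timp1. Timp1 was above Adamts5 in 5 of the 6 LCHADD libraries and in 1 of the 6 WT libraries.

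Likeness between genes was measured as the root mean square difference of their 12 log2 values, each centred on the mean of its gene. Among the 9 genes the closest pairs were Timp2 with Mmp15 (0.18) and Mmp2 with Mmp14 (0.20). Candidates were the 10238 tested genes with a mean of at least 50 and a symbol, leaving out clone names and mitochondrially encoded genes. Related proteases and inhibitors were not left out. Among these candidates the most alike to Timp2 were Alas1 (0.10), Ldhd (0.10) and Pde7b (0.12). Mmp15 was most like Selenbp1 (0.073), Psme1 (0.11) and Cadm4 (0.11). Mmp2 was most like Adgra2 (0.076), Fem1a (0.093) and Tmc7 (0.097), and Mmp14 was most like Card19 (0.095), Col15a1 (0.11) and Rpusd1 (0.11). The nearest to Adamts5 were Dnmt3a (0.13), Slc45a4 (0.15) and Herc3 (0.15). Adamts1, with Bcl9l (0.21), Lrp3 (0.22) and Itgb6 (0.23), and Timp4, with Gprc5b (0.21), Igfbp6 (0.23) and Ube2l6 (0.24), had no gene as close.

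The rest of the metalloproteinase system was described by lists, set beside a median change of -0.0019 over all tested genes. In the mean of both sexes 20.6% of all tested genes were lower and 20.3% higher. These shares are to be set beside each list count given without a sex. Of 20 other matrix metalloproteinases 9 were abundant enough to be tested, each with at most 135 normalised read counts in any library. Of these 3 fell and 0 rose in the mean of both sexes, with a median change of -0.34. The gelatinase Mmp9 had 9.37 ± 2.36 normalised read counts in LCHADD and 22.7 ± 5.25 in WT (SD, n = 6 each; change -1.20, limma adjusted p = 0.000450). Mmp19 changed by -0.73 (adjusted p = 0.0204) and the stromelysin Mmp3 by -0.60 (adjusted p = 0.0436). The most abundant that did not pass were Mmp11 (change -0.14) and Mmp23 (-0.38, or -0.49 without LCHADD male 1, adjusted p = 0.0136). Mmp19 did not pass without LCHADD male 1 (adjusted p = 0.0521), WT female 2 (0.0604) or WT male 3 (0.0623), and Mmp3 did not pass without any 1 of 10 of the 12 libraries (0.0531 to 0.108) or in edgeR and DESeq2. The collagenase genes Mmp1a and Mmp1b, and Mmp7 and Mmp10, were at 0 in all libraries.

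The wider ADAMTS family moved both ways. Of 18 tested genes 6 fell and 3 rose, with a median change of -0.34. Adamtsl4, a protein of the fibrillin matrix, had 371 ± 59 normalised read counts in LCHADD and 823 ± 53 in WT (SD, n = 6 each; change -1.16, limma adjusted p = 8.49e-08). Adamts7, which cuts cartilage oligomeric matrix protein, changed by -1.36 (adjusted p = 7.31e-05), and Adamts2, the procollagen amino-propeptidase, by -0.41 (adjusted p = 0.000740). Adamts9, a versican-cutting protease, rose by 0.58 (adjusted p = 0.000672), with 403 ± 64 in LCHADD and 269 ± 36 in WT. Adamtsl5 (0.13) and Papln (0.28) did not pass, except for Adamtsl5 without LCHADD female 3 (0.22, adjusted p = 0.0261) and Papln without WT female 3 (0.42, adjusted p = 0.0205).

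Among 9 tested genes of the ADAM family, membrane proteins many of which are proteases that release cell surface proteins, 4 fell and 2 rose, with a median of -0.051. Adam19 had 1040.3 ± 66 normalised read counts in LCHADD and 699 ± 115 in WT (SD, n = 6 each; change 0.59, limma adjusted p = 1.46e-06). Adam22 changed by -0.98 (adjusted p = 1.75e-05), Adam15 by -0.38 (adjusted p = 0.000595) and Adam23 by -0.91 (adjusted p = 0.0146). Adam22 and Adam23 are ADAMs without protease activity. Adam10 (-0.048) and Adam12 (0.64) did not pass.

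Of 20 other regulators, which activate, bind or clear these proteases, 8 fell and 4 rose, with a median of -0.32. Their summed level was 28015 to 33650.5 normalised read counts in LCHADD and 28653 to 30128 in WT. The 4 of smallest adjusted p, named here, all fell. The proprotein convertases Furin and Pcsk6, a family that activates membrane-type metalloproteinases, both fell. Pcsk6 had 423 ± 38 normalised read counts in LCHADD and 811 ± 58 in WT (SD, n = 6 each; change -0.94, limma adjusted p = 4.96e-08), and Furin changed by -0.57 (adjusted p = 1.03e-06). Thbs2, a matricellular protein that helps clear Mmp2, changed by -1.04 (adjusted p = 1.45e-06), and the protease inhibitor Serpine2 by -0.94 (adjusted p = 1.69e-06). Thbs1 (-0.091) and Cldn5 (-0.13) did not pass.

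The matrix genes that these proteases act on were also mostly lower. Of 17 tested collagen and basement membrane genes 12 fell and 0 rose, with a median change of -0.39. In females 12 fell and in males 7, where 17.2% and 7.77% of all tested genes were lower. The fibrillar Col5a1 changed by -0.65 (limma adjusted p = 5.79e-06), the microfibrillar Col6a1 by -0.63 (adjusted p = 2.35e-06) and Col6a2 by -0.58 (adjusted p = 3.11e-05), and the basement membrane linker Nid1 by -0.47 (adjusted p = 5.08e-06). The basement membrane chains Col4a1 (-0.12) and Col4a2 (-0.12) did not pass, although Col4a2 did without LCHADD female 2 (-0.16, adjusted p = 0.0429). Of 8 tested proteoglycan genes 4 fell and 0 rose, with a median of -0.24. These were Dcn (-0.60, adjusted p = 3.82e-07), Prelp (-0.63, adjusted p = 1.88e-05), Hspg2 (-0.31, adjusted p = 0.000363) and Lum (-0.20, adjusted p = 0.0108). Vcan, which encodes the Adamts1 substrate versican, did not pass (-0.28, adjusted p = 0.126; -0.39 and 0.0291 without LCHADD female 1), and neither did Bgn (0.037). Of 13 tested genes of collagen processing and cross-linking 6 fell and 0 rose, with a median of -0.19. They included Pcolce (-0.37, adjusted p = 0.00108), Loxl2 (-0.61, adjusted p = 0.00108), Loxl1 (-0.50, adjusted p = 0.00115) and Bmp1 (-0.26, adjusted p = 0.00781), while Serpinh1 (0.26) and Sparc (-0.14) did not pass. Without LCHADD female 3, Serpinh1 passed (0.42, adjusted p = 0.00129).

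**Figure D4:**
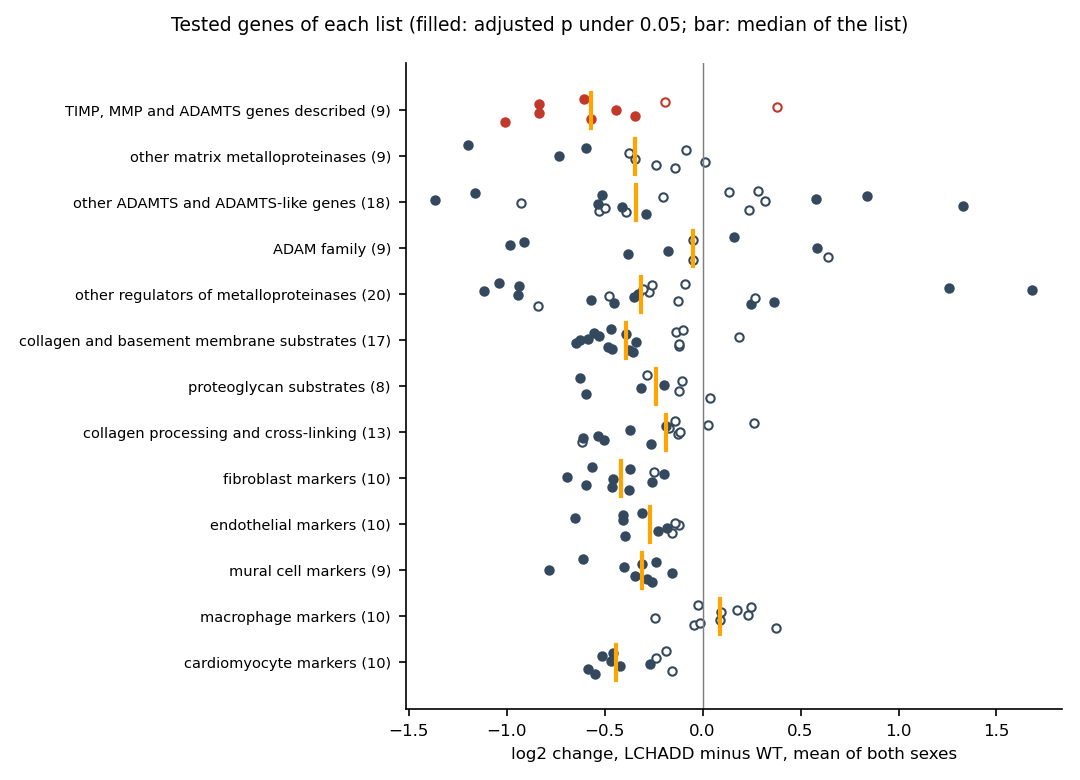
Log2 change, LCHADD minus WT, in the mean of both sexes (x axis) of each tested gene (points, filled where the limma adjusted p is under 0.05) in the 9 described genes (red), in 7 lists of related genes and in 5 lists of cell type markers (rows, with the number of tested genes), with an orange bar at the median of each list. The median of the 9 genes is -0.57, those of the other 7 lists of related genes run from -0.39 to -0.051, and that of the fibroblast markers is -0.42.

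Markers of several cell types of the ventricle wall were lower in LCHADD too, where 20.6% of all tested genes were lower. Of 10 fibroblast markers 9 fell (median change -0.42), and their summed level was 13557 to 18483 normalised read counts in LCHADD and 23415 to 25682 in WT. This list shares Col1a1, Col1a2, Dcn and Lum with the matrix lists. Of 9 tested mural cell markers 9 fell (median -0.31), with sums of 13360 to 17484 in LCHADD and 17744 to 19133 in WT. Of 10 endothelial markers 7 fell (median -0.27), with sums of 16073 to 18807 in LCHADD and 18923 to 21712 in WT. Of 10 cardiomyocyte markers 7 fell (median -0.44), with sums of 686764 to 1.20e+06 in LCHADD and 1.26e+06 to 1.36e+06 in WT. In females 9 of these 10 fell (median -0.63), where 17.2% of all tested genes were lower. In males 2 fell (median -0.21), where 7.77% of all tested genes were lower. The part of these cell types in the lower levels of the TIMP, MMP and ADAMTS genes was not tested. In RNA from whole tissue, fewer cells of a type and less RNA per cell cannot be told apart.

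Markers of other cell types went different ways, where 20.6% of all tested genes fell and 20.3% rose. Of 7 tested markers of activated fibroblasts 2 rose (Meox1 and Cilp) and 0 fell, with sums of 1176 to 4225 in LCHADD and 1587 to 3499 in WT. Of 10 macrophage markers 0 passed in the mean of both sexes. In females 3 of these 10 rose (median 0.22), where 16.7% of all tested genes rose, and in males 0 passed (median -0.14). Of 3 tested neutrophil markers 0 passed, and the defining Mpo and Elane were at 0 in all libraries. Of 3 tested lymphocyte markers 1 fell, and of 5 atrial markers 1 rose and 1 fell. Of 6 erythroid markers 6 fell (median -1.39), with sums of 1916 to 4509 in LCHADD and 6993 to 12600 in WT. Of 6 Schwann cell and neuronal markers 4 fell and 0 rose (median -1.05), with sums of 81.3 to 121 in LCHADD and 194 to 247 in WT. Of 2 epicardial and mesothelial markers 1 rose, and the 1 tested adipocyte marker fell. The ventricular Myl2 had 90791 to 118439 normalised read counts in LCHADD and 114099 to 138954 in WT. The atrial Myl7 had at most 5.47 in LCHADD and 1.73 in WT, but other atrial markers were not as scarce. The 8 atrial markers together summed to 502 to 709 in LCHADD and 730 to 805 in WT.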

How the data were processed

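Per the submitters' processing notes, reads were processed with bcl2fastq and DESeq2 against build GRCm39, without versions. Not given in the sources used here are aligner, annotation and strand use. Deposited values are a signal, reads per gene over a size factor of the library. Divided by the step of their library, 100.0% of them came out whole (tolerance 0.01), which recovered the read counts for the count tests. Symbols (51633 of 51912 IDs) and exon lengths came from GENCODE vM21 on GRCm38, so no gene coordinates on GRCm39 are given. The promoter coordinates are those of GRCm38.p6.

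Groups follow the labelled genotype and sex. Values were taken as log2(value + 1), which understates changes of scarce genes. Genes with at least 10 in at least 3 libraries were tested, 13865 of 25687 with any read and all 9 described genes among them. One limma 3.58.1 fit (lmFit, eBayes with trend, R 4.3.3) held 4 group means over 12 libraries. The threshold was an adjusted p of 0.05 (Benjamini-Hochberg, all tested genes). The interaction is the female change minus the male change. Nothing says that replicates came from separate animals, so p-values measure only the spread between these samples. No replicate pair agreed within sampling noise.

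The 9 genes, the 7 lists of related genes and the 13 lists of markers were chosen with earlier results of these data known, and lists are given as counts and medians. Named were, per list of related genes, the 4 genes of smallest adjusted p among those past the threshold (fewer where fewer passed), the 2 most abundant of the others, the genes overlapping one of the 9, and for each of the 9 that passed the 3 most alike genes with a mean of at least 50. Other list genes named (those at 0, markers) were chosen after their values were seen. Alternatives were added values of 0.5 and 5, a filter at 50 or none, TMM, upper-quartile and nuclear-read scaling, edgeR 4.0.16, DESeq2 1.42.0, array quality weights, the groups of 1 sex alone, a replicate block, leaving out each library in turn, and LCHADD female 2 left out with WT female 3. The fit was also run on simulated data with the same spread in every group. Such data cannot show how the fit handles the wider spread among LCHADD females, and no result is drawn from them here.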

Additional observations from a re-analysis of the deposited data

How the results depend on the processing

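In the mean of both sexes the 7 genes that fell (Timp2, Timp4, Mmp2, Mmp14, Mmp15, Adamts1 and Adamts5) passed in each of 26 alternatives. Timp3 passed in 3 of 26, with array quality weights (-0.23) and without LCHADD female 3 (-0.26) or WT female 1 (-0.25), and Timp1 in 0 of 25. With each replicate left out in turn, 7 to 8 of the 9 genes passed in the mean of both sexes (5010 to 6027 of all genes), 4 to 6 in females (3739 to 5065) and 3 to 6 in males (1315 to 3287). For the interaction 0 of the 9 passed in each, and 0 to 187 of all genes. All genes past the threshold in males numbered 2146, against 3601 with array quality weights, 3342 with only the male groups in the fit and 3305 without LCHADD female 2 and WT female 3. For the interaction there was 1 gene (1363 at an unadjusted p under 0.05), against 2 with the filter at 50, 2 with edgeR under either scaling, 113 and 126 with DESeq2, 749 with array quality weights and 12 without LCHADD female 2 and WT female 3. Among the 9 genes, 1 interaction passed with array quality weights, Mmp2 (-0.43, adjusted p = 0.0392). The cause of these shifts was not tested.

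In females Mmp14 and Adamts5 did not pass with only the female groups in the fit (adjusted p = 0.0525 and 0.0683). In males Mmp2 and Timp4 passed with only the male groups in the fit (adjusted p = 0.0325 and 0.0121). All genes past the threshold numbered 3436 in females and 3342 in males in these fits, against 4692 and 2146 in the shared fit. Same-numbered replicates did not deviate together (18 pairs, correlations -0.106 to 0.0491, 0 over 0.1). With the replicate number as a block, 7, 6, 5 and 0 of the 9 genes passed in the mean of both sexes, in females, in males (Timp4, adjusted p = 0.0235, in addition) and for the interaction, and 5482, 4502, 2016 and 1 of all genes.

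Signs reversed only where no test passed. The interaction of Timp1 became 0.16 without WT male 1 (-0.65 to 0.16 over the libraries left out). That of Timp3 became -0.097 with array quality weights, -0.099 without LCHADD female 3, -0.0057 without LCHADD male 2, -0.072 without WT female 1 and -0.079 without WT male 2 (-0.099 to 0.12 over the libraries left out). That of Adamts1 became 0.17 without LCHADD female 1, 0.0025 without LCHADD male 1, 0.11 without LCHADD male 2 and 0.025 without WT male 2 (-0.34 to 0.17 over the libraries left out), and that of Adamts5 -0.010 without WT female 2 (-0.010 to 0.29). The mean change of Thbs1 became 0.077 with array quality weights, 0.043 without LCHADD female 2, 0.084 without LCHADD male 3 and 0.040 without LCHADD female 2 and WT female 3. That of Bgn became -0.00071 without LCHADD female 1 and -0.0023 without LCHADD female 2 and WT female 3 (-0.00071 to 0.083 over single libraries left out). Depth limits Timp1 most, with 7 to 29 reads per library.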
